A study of Xenopus laevis with 3 samples.

Results

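UVS.2 is the hatching enzyme of Xenopus laevis, and this account follows the array spots that carry its name through anterior and posterior endoderm of the embryo. A spot was taken when its annotation contained UVS.2 or hatching enzyme in any case, which gave 9 of 21504 spots, all of them through the name UVS.2. The gene itself was chosen on measured values, the anterior-to-posterior ratios of its spots at stages 30 and 39 on these same arrays, so the ratios and signals of its spots are a description and were not tested.

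Endoderm was dissected at stages 30, 39 and 46 and divided into an anterior and a posterior part, in a study of genes expressed in the organs that the endoderm forms. The groups differ only in stage and region, and the labels name no strain, mutation or added agent. Labelled cDNA of the 2 regions competed on spotted cDNA arrays, always with anterior in Cy5 and posterior in Cy3, so an effect of the dye and an effect of the region cannot be told apart in any ratio given here. There were 2 arrays per stage, called A and B here, and 6 in all; whether these came from separate dissections is not stated, and the spread between them, on which every SD and p below rests, may be technical.

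Hatching enzyme is a secreted zinc metalloproteinase of the astacin family, which also holds the tolloid and BMP-1 proteinases and the choriolysins of fish. Gland cells in the surface ectoderm of the embryo release it, and it digests the vitelline envelope so that the larva can leave the egg. It is known as a product of the hatching gland and not of the gut, and in whole pieces of tissue, fewer cells of a type and less RNA per cell cannot be told apart.

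Of the 9 spots, 6 were named through a match to the UVS.2 precursor protein (XL060d15, XL074e15, XL079c03, XL081c03, XL092l01 and XL105c01) and 3 through the UVS.2 mRNA entry of the nucleotide database (XL075a02, XL104f06 and XL104f08). For XL079c03 and XL081c03 the annotation says that the match came from a 3′ read of the clone. RefSeq gives the gene under the symbol astl3a.1.L, with uvs.2 and xhe among its synonyms, and lists 12 Xenopus laevis genes whose symbols start with astl among 44456 genes. The annotations are best database matches that are cut short, clone sequences were not used here, and a spotted cDNA can bind related transcripts, so which of these genes a given clone represents was not tested.

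A spot counted as well above background in a region when its median pixel intensity exceeded the local background by over 2 background SDs. By that measure, 8 of the 9 spots had a signal in at least 1 region on at least 2 of the 6 arrays. The exception was XL092l01, which the scanner software found on only 1 array (stage 46 B, log2 ratio 0.05) and which was not well above background there. On stage 30 array A the local background of this spot was 4542 in the anterior channel, against a spot intensity of 5690. Complete ratios on all 6 arrays were available for 6 spots. Anterior and posterior signals were both well above background on all 6 arrays for XL079c03 and XL104f06, on 3 arrays for XL075a02, XL081c03 and XL105c01, and on 2 arrays for XL060d15, XL074e15 and XL104f08.

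XL074e15 had the lowest anterior-to-posterior ratio of the 9 spots at each of the 3 stages. At stage 39 its background-subtracted intensity was 574 in anterior and 6079 in posterior endoderm on array A, and 587 and 6143 on array B. The posterior signal was thus the higher by far on both arrays, and the anterior signal was not well above background on either. The log2 ratios of anterior over posterior after normalisation were -3.42 and -3.38, a mean of -3.40 ± 0.03 (SD, n = 2 arrays). This is 10.6-fold lower in anterior endoderm. As the anterior signal was dim, the size of the difference is uncertain, and the value is not a firm lower limit. When the background was not subtracted at all the log2 ratio was -3.08, and plain subtraction gave -3.55. Of the 13943 probes with a ratio at stage 39, only 1 had a lower one.

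At stage 30 the same clone showed a smaller difference in the same direction. Its intensities were 4415 (anterior) and 7872 (posterior) on array A, and 1301 and 3010 on array B. The local background on array A was uneven, with an SD of 6218 in the anterior channel, so that on this array neither region counted as well above background; on array B both did. The log2 ratios were nevertheless alike at -1.09 and -1.16 (mean -1.12 ± 0.05, SD, n = 2 arrays), which is 2.18-fold lower in anterior endoderm and 56th from the lowest among 14122 probes.

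At stage 46 little signal of XL074e15 was left in either region. Intensities were 162 (anterior) and 327 (posterior) on array A, where both were well above background, and 141 and 315 on array B, where neither was. The log2 ratios of -0.61 and -0.62 (mean -0.62 ± 0.01, SD, n = 2 arrays) still placed the posterior signal higher, by 1.53-fold. At this stage 3.75% of 14068 probes had a lower ratio.

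XL079c03 had the second lowest ratio of these spots at stage 39. Its intensities there were 3518 (anterior) and 7093 (posterior) on array A, and 3532 and 6889 on array B. All 4 signals were well above background, and the log2 ratios were -1.36 and -1.25 (mean -1.31 ± 0.08, SD, n = 2 arrays), or 2.48-fold lower in anterior endoderm. The spots XL074e15 and XL079c03 therefore shared the direction at stage 39 and differed in size, by over 2 log2 units, which is far more than the arrays A and B of either spot differed.

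At stages 30 and 46 the regions were close to even for XL079c03. The log2 ratios at stage 30 were -0.24 and 0.02 (mean -0.11 ± 0.18), which straddle 0. The raw intensities there were 40251 (anterior) and 37379 (posterior) on array A, and 12418 and 11744 on array B. Part of the spot was saturated, with 16% of the anterior and 11% of the posterior pixels at the limit on array A and 3% of the anterior pixels on array B. The median pixel, on which the ratio rests, was below that limit. At stage 46, with no saturated pixel, the ratios were -0.02 and -0.11 (mean -0.06 ± 0.06).

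The 3 clones named through the mRNA entry did not show the deep ratio at stage 39. XL104f06, well above background throughout, had log2 ratios of -0.20 on both arrays at stage 30, of 0.25 and 0.29 at stage 39 (mean 0.27 ± 0.03, SD, n = 2), and of 0.20 and 0.30 at stage 46 (mean 0.25 ± 0.07). It was slightly lower in anterior endoderm at stage 30 and slightly higher there later, with means within 1.21-fold of even at all 3 stages. Without any normalisation within arrays its stage 46 mean was -0.02.

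XL075a02 had the same signs at stages 30 and 39 with larger ratios. Its log2 ratios were -0.72 and -0.66 at stage 30 (mean -0.69 ± 0.04, SD, n = 2) and 0.41 and 0.40 at stage 39 (mean 0.40 ± 0.01), so the arrays of the stages did not overlap. At stage 46 only array A gave a ratio, 0.16. The intensities were modest, between 449 and 832 in anterior and between 498 and 1059 in posterior endoderm.

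XL104f08 was measured less well. It had 0.15 and 0.36 at stage 30 (mean 0.26 ± 0.14), with both regions well above background, 0.14 on the single stage 39 array that found it, and -0.04 and -0.54 at stage 46. At stages 39 and 46 neither region was well above background, and the arrays of stage 46 differed from each other by 0.496, the widest gap of any of these spots.

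The remaining spots named through the protein match were closer to their background. XL105c01 had log2 ratios of 0.45 and 0.41 at stage 30 (mean 0.43 ± 0.03, SD, n = 2), -0.23 and -0.18 at stage 39 (mean -0.21 ± 0.04), and 0.15 and 0.09 at stage 46. XL060d15 had 0.51 and 0.20 at stage 30, -0.59 and -0.26 at stage 39, where the posterior signal was well above background on 1 array and the anterior on 0, and -0.35 and -0.30 at stage 46. Both spots thus lay on the anterior side at stage 30 and on the posterior side at stage 39, although at stage 30 both signals of XL060d15 were below that limit, and so were those of XL105c01 at stage 46. In the authors' deposited table the stage 39 log2 ratios of these spots are lower, -1.56 for XL060d15 and -1.11 for XL105c01, beside -1.26 for XL079c03. The median ratio over all clones of that column was 0.802, so the column as a whole lies below an even ratio. On the same scale XL060d15 had 0.340 and XL105c01 had 0.463, both well below that median.

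XL081c03 stayed near even with the arrays of each stage close together. Its log2 ratios were 0.19 and 0.22 at stage 30, 0.05 and 0.09 at stage 39, and 0.32 and 0.30 at stage 46, the last with neither region well above background. The stage 39 mean of 0.07 turned negative without normalisation within arrays (-0.01), with median centring (-0.10) and in the authors' deposited table (-0.56).

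**Figure D1:**
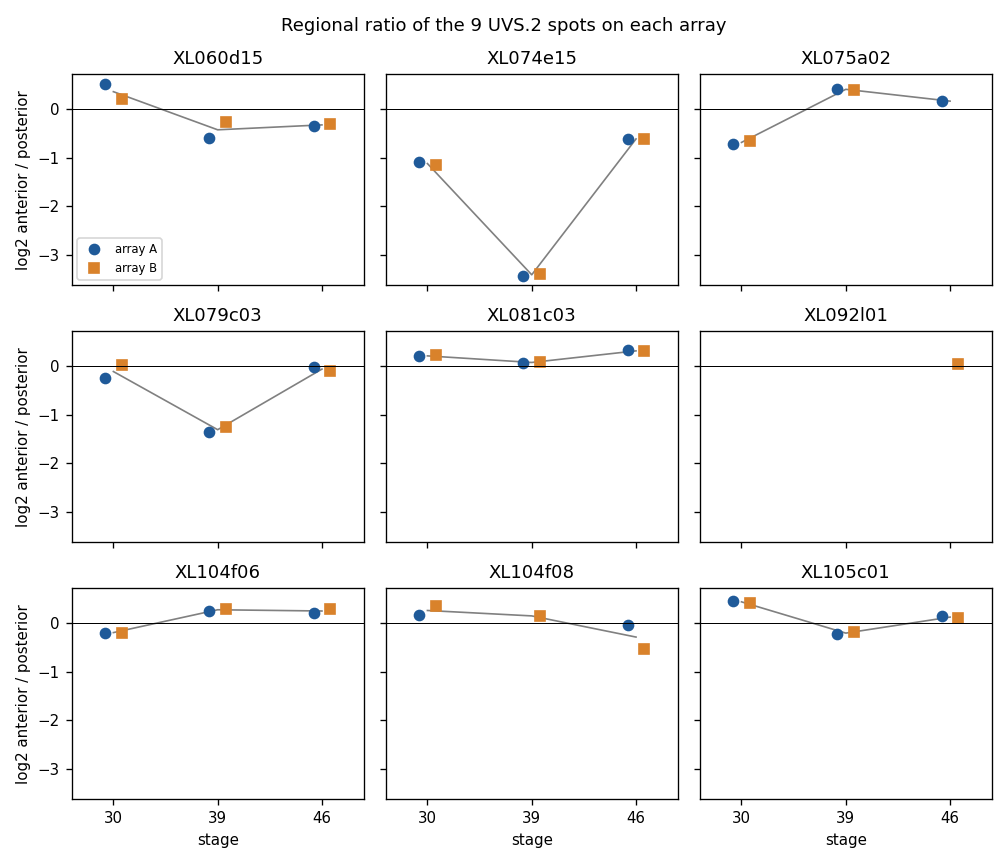
Log2 ratio of anterior over posterior signal (vertical axis) by stage (horizontal axis) for each of the 9 UVS.2 spots, with array A as circles, array B as squares and a line through the stage means of the arrays that gave a value. XL074e15 and XL079c03 dip at stage 39, to -3.40 and -1.31, while the other spots stay between -0.72 and 0.51 on every array.

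The spots disagreed at stage 30. Of the 8 with ratios on both arrays, 4 had a mean below 0 (XL074e15, XL075a02, XL104f06 and XL079c03). The other 4 had a mean above 0 (XL105c01, XL060d15, XL104f08 and XL081c03). Only XL104f06, XL079c03 and XL104f08 had both regions well above background on both arrays, and the arrays of XL079c03 straddled 0. Among the spots above 0, XL105c01 and XL081c03 were well above background on array A only, and XL060d15 on neither array. The means ran from -1.12 to 0.43, a range of 1.55, with a median of 0.05, while the median over all probes was 0.01. Arrays A and B of one spot differed by 0.0662 in the median and by at most 0.315. The range over 8 spots and the gap between 2 arrays are unlike measures, and the range rests largely on dim spots. The 3 spots with both regions well above background on both arrays had means of -0.20 (XL104f06), -0.11 (XL079c03) and 0.26 (XL104f08). Both types of annotation had spots on both sides of 0: the protein matches split 2 below and 3 above, and the mRNA matches 2 below and 1 above. With so few spots, a link with the type of annotation cannot be judged.

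The authors' deposited table gives a stage 30 ratio for only 3 of the 9 clones. In it XL074e15 has 0.435, XL104f06 0.849 and XL079c03 0.950, all below 1. The median over all clones of that column was 0.975, so XL079c03 lay close to the median. None of the 4 spots with a mean above 0 at stage 30 has a value in that column, so the split between spots cannot be seen there.

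At stage 39 the range between spots was wider, 3.80, from -3.40 to 0.40, with 4 of 7 spots below 0 and a median of -0.21. Without XL074e15 the lowest mean was -1.31 (XL079c03) and the median of the other 6 spots was -0.07. At stage 46 the range was 0.925, again with 4 of 7 spots below 0 and a median of -0.06. The median over all probes was 0.01 at stage 39 and 0.02 at stage 46.

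The spread between the UVS.2 spots was also set beside that of other annotations. The ratios at stages 30 and 39 and the disagreement at stage 30 entered the choice of the gene, so this is a description and supports nothing. The SD between the UVS.2 spots was 0.549 at stage 30, 1.34 at stage 39 and 0.339 at stage 46. Among other annotations with at least 5 measured spots, the median SD was 0.262, 0.264 and 0.231 at these stages. Wider spreads than that of UVS.2 were found for 7 of 316 other annotations at stage 30, for 0 of 308 at stage 39 and for 52 of 293 at stage 46. With XL074e15 left out, the SD was 0.395, 0.622 and 0.270, and 35, 12 and 99 of the other annotations were wider. Annotations were compared by the start of their text, which can join different genes of a family.

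**Figure D2:**
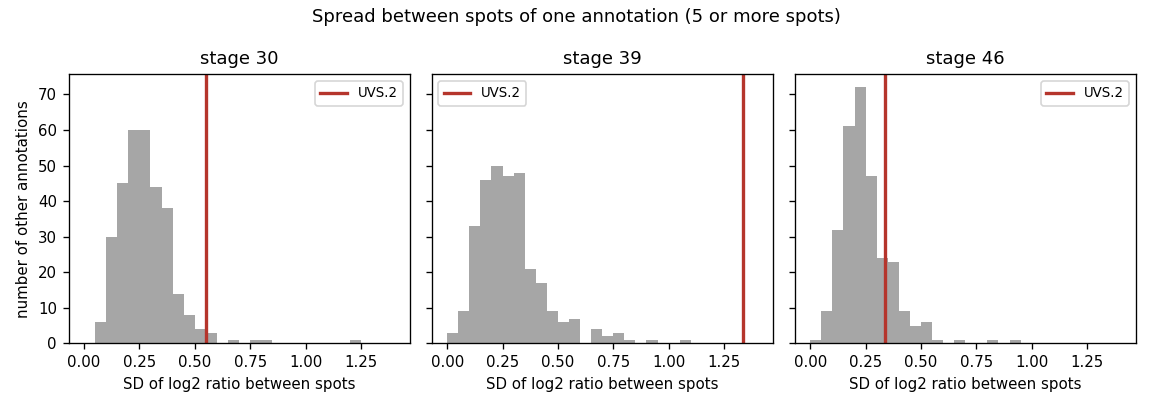
Number of other annotations (vertical axis) by the SD of the log2 ratio between their spots (horizontal axis), for annotations with 5 or more spots, at stages 30, 39 and 46; the red line is UVS.2. The line lies at 0.549, 1.34 and 0.339, to the right of every bar at stage 39.

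One further spot, XL093i06, carries the accession of the UVS.2 mRNA but has its name cut before those letters, so it is not among the 9. It was lower in anterior endoderm at stage 30, with log2 ratios of -0.79 and -0.85, and had -0.31 and -0.36 at stage 39 and -0.18 and 0.03 at stage 46. In this processing its ratio was thus deepest at stage 30, unlike that of XL074e15. Each region was well above background on only 1 of the stage 39 arrays. In the authors' deposited table its log2 ratio was -0.85 at stage 30 and -1.05 at stage 39, the latter in the column with a median ratio of 0.802. The order of the 2 stages therefore depends on the processing.

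The ratio does not show which region differed between stages, so the signal of each channel was normalised across all 6 arrays and followed within a region. Each stage had arrays of its own and the scanner gain was set slide by slide, so stage and array cannot be told apart in these differences, none of which was tested. For XL074e15 the normalised posterior signal at stage 39 was above that at stage 30 by 1.59 on the log2 scale (3.01-fold, 1.25 to 1.93 over the pairings of arrays). This was a larger difference than in 98.5% of 12790 probes. It depends on the normalisation across arrays: before it, the posterior intensities were 7872 and 3010 at stage 30, and 6079 and 6143 at stage 39. The stage 30 posterior signal was well above background on 1 array only. The stage 46 signal minus the stage 39 signal was -3.95 (15.5-fold lower; pairings from -4.05 to -3.85), and 0.0315% of 12680 probes had a lower difference. The stage 46 posterior signal was well above background on array A only, so the size of this difference is uncertain.

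The anterior signal of XL074e15 was instead lower at each later stage. It differed by -0.69 between stages 30 and 39 (pairings from -1.09 to -0.29) and by -1.16 between stages 39 and 46, with the stage 39 signal itself not well above background. The median difference over all probes was close to 0, between -0.02 and 0.07 in these steps. Between stages 30 and 46 the signal of the clone differed by -1.85 in anterior and by -2.36 in posterior endoderm.

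XL079c03 was also lower at stage 46 than at stage 30, without a higher posterior signal at stage 39. Its anterior signal differed by -1.39 between stages 30 and 39 and by -0.44 between stages 39 and 46. The posterior signal differed by -0.20 in the first step, with pairings on both sides of 0 (-0.68 to 0.29), and by -1.68 in the second (3.21-fold). The larger of the anterior differences thus lay between stages 30 and 39, and the larger of the posterior ones between stages 39 and 46.

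Of the clones of the mRNA entry, only XL104f06 had values for both steps. It differed by 0.88 in anterior and 0.41 in posterior endoderm between stages 30 and 39, and by -0.06 and -0.03 between stages 39 and 46. XL075a02 differed by 1.39 and 0.30 in the first step, the posterior value with pairings on both sides of 0. XL093i06, outside the rule, differed by -2.74 in anterior and -3.22 in posterior endoderm between stages 30 and 39, with both regions well above background on 1 of the stage 39 arrays.

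**Figure D3:**
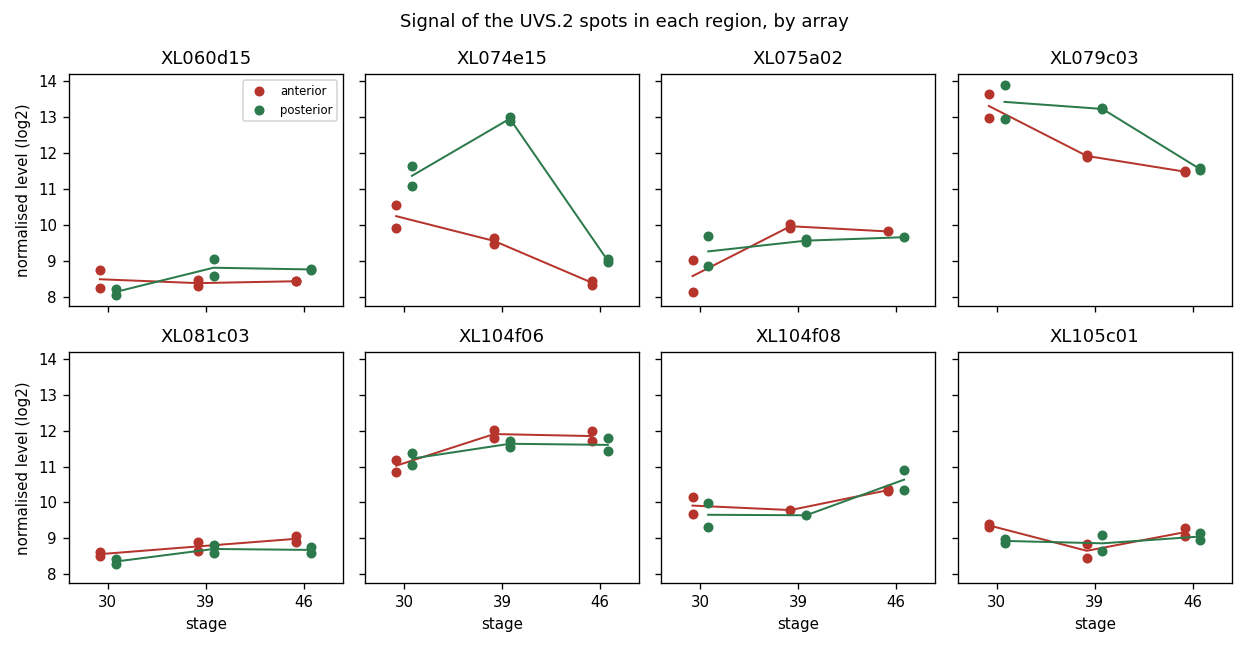
Normalised signal on a log2 scale (vertical axis) by stage (horizontal axis) in anterior (red) and posterior (green) endoderm for the 8 UVS.2 spots with a signal; points are arrays and lines join stage means. The posterior signal of XL074e15 was highest at stage 39, with a difference of -3.95 to stage 46, while XL079c03 was lower at stage 46 than at stage 30 in both regions.

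To see which other probes had a like pattern, the root mean square difference in log2 ratio over the 6 arrays was taken. It was taken between each UVS.2 spot with all 6 ratios and the 7264 annotated probes with a ratio on all 6 arrays. None of these came close to XL074e15. Its ratios at stages 30 and 39 entered the choice of the gene, and its stage 39 ratio was near the lowest of all. A wide gap to other probes was thus set in advance, and this is a description. Its nearest was a glucose-6-phosphatase clone, of the enzyme that releases free glucose (XL090j03, difference 0.658, means of -1.52, -2.38 and -0.77 at stages 30, 39 and 46). Then came a clone whose annotation is cut after glycine am (0.675), a second glucose-6-phosphatase clone (0.739), the sugar-splitting enzyme aldolase B (0.754) and guanidinoacetate N-methyltransferase, which makes creatine (0.756). The median difference over all candidates was 2.12.

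The other spots had near neighbours. The closest probe to XL079c03 was one matched to the fly gene T3dh (0.0634; -0.07, -1.38 and -0.02 at stages 30, 39 and 46), followed by a cytochrome-c oxidase (0.0803). For XL060d15 the closest was a HEC gene match (0.0735), and for XL104f06 a match to chicken ATF4, a transcription factor (0.0556). The closest differences for XL105c01 and XL081c03 were 0.0367 and 0.0378. Spots whose ratios stay near 0 have many near neighbours by this measure, and the median differences for these spots were between 0.366 and 0.825.

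Relatives of the hatching enzyme on the array were taken by the names in the annotations, and sequences were not compared. Those with a signal were 3 clones matched to choriolysin H and a BMP-1 clone. Choriolysin H is the hatching enzyme of the medaka fish that digests its egg envelope. BMP-1 is a proteinase that in vertebrates processes procollagen. Of 5 spots of astacin and tolloid proteinases, 4 had a signal. These probes were tested with limma over all probes, where 56.4% of 14122 probes passed an adjusted p of 0.05 at stage 30 (28.7% with anterior above posterior, 27.7% with anterior below), 63.1% of 13943 at stage 39 (31.4% and 31.7%) and 55.5% of 14068 at stage 46 (30.4% and 25.1%).

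All 3 choriolysin H clones were lower in anterior endoderm at stage 30, the 3 astacin probes tested there. XL085f17 had a log2 ratio of -0.56 ± 0.06 (SE of the limma fit, limma adjusted p = 0.000366), XL099g19 had -0.47 ± 0.06 (0.000544) and XL087m17 had -0.30 ± 0.05 (0.00219). The median of the 3 was -0.47, against 0.01 over all probes.

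At stage 39, 3 of 4 were lower, namely BMP-1 (-0.38 ± 0.06, limma adjusted p = 0.0016), XL087m17 (-0.31 ± 0.05, 0.00131) and XL099g19 (-0.30 ± 0.06, 0.00313, anterior signal not well above background). XL085f17 had -0.01 there and did not pass (adjusted p = 0.912). At stage 46, 2 of 3 were higher, BMP-1 at 0.35 ± 0.06 (0.00299) and XL099g19 at 0.29 ± 0.06 (0.00449), and 1 of the 3 passed without either stage 46 array. XL087m17 did not pass at that stage (-0.04, adjusted p = 0.508). The lowest of these ratios, -0.56, was far from the -3.40 of XL074e15.

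Other extracellular metalloproteinases and their inhibitors were called in both directions, beside shares over all probes of 28.7% higher and 27.7% lower at stage 30, 31.4% and 31.7% at stage 39, and 30.4% and 25.1% at stage 46. At stage 30, 3 of 14 were higher in anterior endoderm, 5 were lower and 6 did not pass. The counts were 3 higher, 6 lower and 5 not passing of 14 at stage 39, and 3, 4 and 6 of 13 at stage 46. The largest fitted ratio among those called at stage 39 was that of MMP115, a chicken entry listed for the letters MMP (-0.63 ± 0.06, limma adjusted p = 6.21e-05). Its anterior signal was well above background on 0 arrays and its posterior signal on 1. Whether MMP115 is a metalloproteinase was not checked. Its 2 clones gave 1 of the lower calls at stage 30, 2 at stage 39 and 1 at stage 46. The next largest was that of a matrix metalloproteinase (-0.51 ± 0.06, limma adjusted p = 0.000382). At stage 39, 1 probe was higher without array A, and likewise without B; at stage 30, 3 were lower without array A and 1 was higher without array B; at stage 46, 1 was lower without array A, and 5 were higher without either stage 30 array.

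On the substrate side, 1 spot matched by name. A vitelline envelope glycoprotein, a component of the coat that hatching enzyme digests, was higher in anterior endoderm at stage 30 (0.28 ± 0.08, limma adjusted p = 0.0228) and lower at stage 46 (-0.34 ± 0.08, adjusted p = 0.0109). The stage 30 call ended without either array of that stage and with no background subtraction. The stage 46 call ended without its array B, and the anterior signal there was well above background on 0 arrays.

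**Figure D4:**
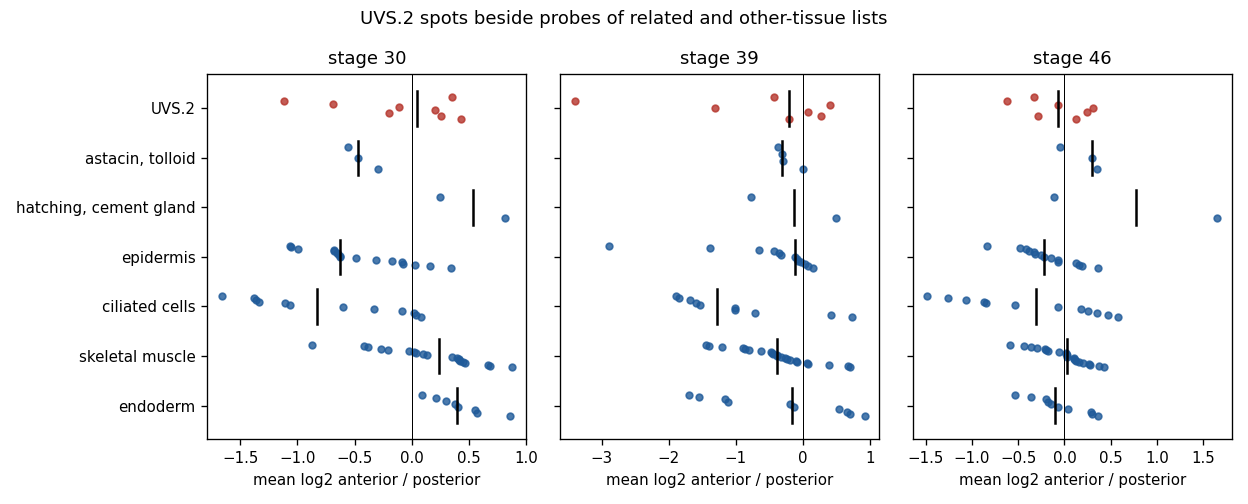
Mean log2 ratio of anterior over posterior signal (horizontal axis) at stages 30, 39 and 46 for each UVS.2 spot with both arrays (red) and for each tested probe of related and other-tissue lists (blue); black bars are medians and the vertical line is 0. The axes of the 3 stages differ. XL074e15 at -3.40 lies outside the range of the other lists at stage 39, where a periplakin probe of the epidermis list has -2.89.

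Hatching gland cells belong to the surface ectoderm, which a dissection of endoderm can carry along, so markers of ectoderm and of other tissues were read beside the UVS.2 spots. The list for the hatching gland and the neighbouring cement gland held 5 spots, of otx2, XAG and a cement gland protein, and 2 had a signal. No spot in it was a marker of the hatching gland itself. The clone of otx2, a regulator of head and cement gland, was higher in anterior endoderm at stage 30 (0.81 ± 0.06, limma adjusted p = 5.54e-05), lower at stage 39 (-0.78 ± 0.06, adjusted p = 2.47e-05) and did not pass at stage 46 (-0.11, adjusted p = 0.129). XAG, a secreted protein of the cement gland, was higher at all 3 stages, with 0.25 ± 0.05 (adjusted p = 0.00528), 0.50 ± 0.05 (0.00014) and 1.65 ± 0.05 (1.12e-06). A cement gland protein and a further otx2 homeobox spot were well above background in 0 of 12 channels. In posterior endoderm the summed signal of otx2 and XAG was 2248.98 to 2569.93 on the stage 30 arrays and 2508.65 to 2521.92 on those of stage 39. At stage 46 it was 5299.7 to 6200.48. The anterior sum was 3563.87 to 4075.87 at stage 30, 1857.49 to 2104.96 at stage 39 and 12841 to 16284.2 at stage 46. Stage and array cannot be told apart in these sums. The part of these glands in the UVS.2 ratios was not tested.

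Markers of epidermis and of ciliated cells were read against 27.7% of all probes lower in anterior endoderm at stage 30, 31.7% at stage 39 and 25.1% at stage 46. Of 17 epidermis probes at stage 30, 11 were lower in anterior endoderm, 2 were higher (1 when any single array was left out) and 4 did not pass. Of the 11 lower, 5 were clones of envoplakin and 3 of periplakin. At stage 39, 6 of 13 were lower, 0 higher (1 without array A) and 7 did not pass. At stage 46, 7 of 15 were lower (2 without stage 46 array A, 4 without B) and 2 higher (1 and 0). For periplakin, which joins desmosomes to keratin filaments, the clones disagreed at stage 39. XL080g13 had -2.89 ± 0.18 (SE of the limma fit, limma adjusted p = 2.79e-05), with its arrays apart at -2.46 and -3.31. XL101d20 had -0.36 (limma adjusted p = 0.005) and XL068a24 had -0.03 (adjusted p = 0.707). At the same stage an epidermal keratin of 47 K had -1.38 ± 0.14 (limma adjusted p = 0.000102). The keratin clones disagreed as well. Of 2 others named as epidermal type I keratin, XL069i16 had 0.14 (limma adjusted p = 0.171) and XL092p22 had -0.33 (adjusted p = 0.00164). At stages 30 and 46 XL069i16 was lower in anterior endoderm (-0.68 and -0.48) and XL092p22 higher (0.16 and 0.19).

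The summed signal of 12 epidermis probes was 56563.2 to 58854.6 in anterior and 76841.8 to 87835 in posterior endoderm at stage 30, and 16786.2 to 19879 and 19843 to 22393.7 at stage 39. It was thus lower at stage 39 in both regions, though stage and array cannot be told apart in this difference. Of the ciliated cell probes, 8 of 12 were lower and 0 higher (1 without array B) at stage 30, and 8 of 10 were lower and 2 higher at stage 39, with a tubulin alpha-2 clone, XL057k17, at -1.89 ± 0.09 (limma adjusted p = 4.04e-06). Of the 8 lower at each of these stages, 6 were clones of tubulin alpha-2, while at stage 39 both clones of tubulin beta-4 were higher. At stage 30 the tektin clone XL060c09 was lower (-1.06) and the tektin clone XL097h09 did not pass (0.08). The axonemal dynein clones XL062n19 (0.04) and XL100m24 (0.02) did not pass there either. The counts thus rest largely on tubulin alpha-2 and do not describe ciliated cells as such. At stage 46, 6 of 12 were lower and 4 higher (1 without stage 46 array B, 2 without either stage 39 array). Their summed signal, over 10 probes, was 14261.2 to 17531.3 in anterior and 22668.3 to 24875.7 in posterior endoderm at stage 39. The part of these tissues in the UVS.2 ratios was not tested.

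Other tissues were read against the same shares, with 28.7% of all probes higher at stage 30, 31.4% at stage 39 and 30.4% at stage 46. Of 8 endoderm probes, 7 were higher in anterior endoderm and 0 lower (1 without array B) at stage 30. At stage 39, 4 of 10 were higher and 5 lower, the lowest of them a clone of endodermin, a marker of Xenopus endoderm, at -1.70 ± 0.08 (limma adjusted p = 4.75e-06, each region well above background on 1 array). The 8 probes of stage 30 were 4 clones of the transcription factor GATA-6B, 2 of VegT and 2 of endodermin. At stage 39 the 4 higher were the GATA-6B clones, and the 5 lower were clones of endodermin, VegT and mixer. At stage 46, 3 of 10 were higher and 3 lower (1 without array B). Skeletal muscle had 10 higher and 4 lower of 20 at stage 30 and 3 higher and 15 lower of 23 at stage 39, with a fast troponin I at -1.44 ± 0.06 (adjusted p = 1.72e-06) at the later stage, and 5 higher (2 without either stage 46 array) and 5 lower of 22 at stage 46. Liver genes had 10 higher and 0 lower of 11 at stage 30, and 5 higher (3 without stage 39 array A) and 6 lower of 11 at stage 39, and 3 and 4 of 9 at stage 46. The 4 apolipoprotein E clones were all among those higher at stage 30 and among those lower at stage 39. The other lower clones at stage 39 were apolipoprotein C-I and a fibrinogen clone. The 5 higher at stage 39 were 2 serotransferrin clones, a transferrin clone and 2 other fibrinogen clones. The liver list was thus split by gene at that stage. The red blood cell list had 0 higher and 4 lower of 8 at stage 30, 2 and 4 of 9 at stage 39, and 3 and 5 of 10 at stage 46. Its measured probes were clones of adducin alpha, a 55 kDa erythrocyte membrane protein, beta-spectrin and an erythrocyte membrane protein 7. None was a globin, so the counts describe these genes and not red blood cells as such. Of the 4 lower at stage 30, 3 were adducin alpha clones, and 2 of these clones were higher at stage 39. The part of these tissues in the UVS.2 ratios was not tested either.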

How the data were processed

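Per the labels, RNA was extracted with TRIZOL, reverse transcribed with oligo(dT) and dye-coupled dUTP, and scanned with the gain set on each slide. The deposited scanner files hold linear pixel intensity per spot and dye, neither background-subtracted nor normalised, the percent of saturated pixels, and a score marking spots not found, per the file headers. The authors' deposited ratios are 1 per clone and stage, made with GeneData Refiner and Expressionist per the labels (versions not given in the sources used here).

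Median intensities were processed in R 4.3.3 with limma 3.58.1, after reading with the data.table package (version 1.17.8): normexp background correction (offset 50), loess within arrays (span 0.3; the 231 control spots and spots not found without weight, then left out), and Aquantile between arrays for signals per region. The filter, well above background in 1 channel on 2 arrays, left 15711 probes. A fit with a mean per stage had 3 residual degrees of freedom and two-sided tests, with Benjamini-Hochberg adjustment over all probes and a threshold of 0.05. The SE given with a fitted ratio is that of this fit and not of the 2 arrays of the stage alone. Its variance was pooled over the stages and drawn by limma towards that of all probes. Scripts were tested on simulated data. The median spot intensity of an array was 607 to 2988.5 in anterior and 807 to 3037 in posterior channels. Between arrays A and B, r over the log2 ratios of all probes was 0.848 (stage 30), 0.947 (39) and 0.935 (46). The authors' ratio followed these ratios with r of 0.995, 0.849 and 0.977, which set its direction.

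The members, lists and rules were chosen with earlier results of these data known. The text names every UVS.2 spot, every measured astacin probe, for other lists up to 2 probes with the largest passing ratios at stage 39, and the 5 probes nearest to a spot; some named probes are left out for room. The vitelline envelope, otx2, and XAG probes are named as the only ones with a signal in their lists. Alternatives covered background, normalisation, the filter, the authors' deposited ratios and leaving out each array.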

Additional observations from a re-analysis of the deposited data

Results flagged for a closer look

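For 5 spots, both arrays of one stage lay on one side of an even ratio and both arrays of another stage on the opposite side. The difference between stages was not tested in any of them. Given as the later minus the earlier mean log2 ratio, XL060d15 differed by -0.78 from stage 30 to stage 39 and by -0.68 from stage 30 to stage 46. XL105c01 differed by -0.64 from stage 30 to stage 39 and by 0.33 from stage 39 to stage 46. XL075a02 differed by 1.09 from stage 30 to stage 39. XL104f06 differed by 0.47 from stage 30 to stage 39 and by 0.44 from stage 30 to stage 46. XL104f08 differed by -0.55 from stage 30 to stage 46. Of these, XL060d15 at stage 30 and XL104f08 and XL105c01 at stage 46 were not well above background in either region.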

How the results depend on the processing

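The sign of the XL074e15 ratio was negative at all 3 stages under every alternative run. Its stage 30 value was -1.20 in the authors' deposited table, -1.19 with mean in place of median pixels, -1.03 with no background subtraction and -1.01 with no normalisation within arrays. In the same order its stage 39 value was -3.47, -3.45, -3.08 and -3.20, and its stage 46 value -0.86, -0.68, -0.48 and -0.83. Plain background subtraction gave -3.55 at stage 39 and -0.78 at stage 46, the background of the print block -3.22 and -0.58, loess within print blocks -3.32 and -0.59, and median centring -3.29 and -0.58; keeping spots not found gave -0.60 at stage 46. The print block background, the mean over pixels and the keeping of spots not found were chosen after seeing the data.

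The range between the spots at stages 30, 39 and 46 was 1.13, 3.74 and 1.12 in the authors' deposited table, where fewer spots have a value at stage 30. It was 1.61, 3.64 and 0.872 with the print block background, 1.68, 3.70 and 0.948 with loess within print blocks, 1.59, 3.75 and 0.973 with mean pixels, 1.53, 3.74 and 0.914 with median centring, 1.41, 3.47 and 0.768 with no background subtraction, 1.53, 3.74 and 0.914 with no normalisation, and 1.68, 3.998 and 1.16 with plain subtraction. Leaving out 1 array of stage 30 gave 1.57 and 1.60 there.

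For the change of XL074e15 from stage 39 to stage 46, the anterior value was -1.06 with no and -1.41 with plain background subtraction, and the posterior value -3.67 and -4.18, or -3.84 with each channel scaled to its median. Signs reversed at stage 46 for XL105c01 (-0.057 in the authors' deposited table, -0.13 with no normalisation) and for XL104f06 (-0.017 with no normalisation). At stage 39 the sign of XL081c03 reversed, with -0.56 in that table, -0.10 with median centring and -0.011 with no normalisation. XL105c01 had -1.11 and XL060d15 -1.56 in the same table at stage 39, further below 0 with no change of sign. The median ratio of that stage 39 column was 0.802. Leaving out 1 array at a time, the number of probes passing at stage 46 ran from 4467 to 8707 against 7812, the lowest without array B of that stage and 4552 without array A. The cause of these shifts was not tested. Each ratio compares the regions on the same array. No analysis paired across stages was possible, because arrays A and B are not known to be matched between stages. Signal over background limits all of these spots but XL079c03 and XL104f06: XL074e15, XL060d15 and XL104f08 had both regions well above it on 2 of 6 arrays and XL092l01 on 0.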
